A study of Mus musculus with 25 samples.

Results

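Mouse mammary tumours that pathology called poorly differentiated adenocarcinoma (3 tumours) were compared with tumours called adenocarcinoma and nothing further (4 tumours), on arrays that measured microRNAs. The members were taken from the pathology label alone, whatever the genotype, and make up 7 of the 25 arrays of the series. All mice were FVB females. The genotypes were 3 in number: MMTV-Met, in which the promoter of the mouse mammary tumour virus drives a transgene of the receptor kinase Met; Trp53fl/+, with 1 floxed allele of the tumour suppressor gene Trp53 and Cre; and MMTV-Met;Trp53fl/+, which combines them with Cre. The promoter that drives Cre is not given in the sources used here, nor are the ages of the mice. Poorly differentiated tumour 1 was Trp53fl/+ from a nulliparous mouse, tumour 2 was MMTV-Met;Trp53fl/+ from a multiparous mouse, and tumour 3 was MMTV-Met;Trp53fl/+ from a nulliparous mouse. Adenocarcinoma 1 was MMTV-Met;Trp53fl/+ from a multiparous mouse, adenocarcinomas 2 and 3 were Trp53fl/+ with no parity stated, and adenocarcinoma 4 was MMTV-Met from a multiparous mouse. The poorly differentiated group thus held no MMTV-Met tumour, and genotype and pathology were not balanced. Poorly differentiated tumour 1 and adenocarcinoma 2 carry the same number in their titles, as do adenocarcinoma 3 and spindloid tumour 7, and the labels do not state that the tumours came from separate animals. The p-values therefore speak only of how far these arrays differ from each other. A further 7 spindloid tumours, named for spindle-shaped cells, served as a common reference for both groups (1 MMTV-Met, 3 MMTV-Met;Trp53fl/+ and 3 Trp53fl/+). The fit also held 2 pools of mammary gland without tumour from wild-type FVB mice, 1 of multiparous and 1 of nulliparous animals.

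MicroRNAs are short RNAs that pair with messenger RNAs through a seed at bases 2 to 8 and lower the output of those messages. The miR-200 family is a mark of epithelial cells: it represses Zeb1 and Zeb2, which in turn repress the genes of cell junctions such as E-cadherin, and its loss accompanies a change towards a mesenchymal form. In the mammary gland miR-205 belongs to basal and progenitor epithelial cells, and miR-199, miR-214, miR-143 and miR-145 belong to fibroblasts and smooth muscle.

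The miRNAs on which the comparison turns are shown with their seeds in capitals, from RefSeq on build GRCm38.p6, in which 34 of 41 miRNAs looked up were found. The first 5 are the miR-200 family, which falls into a pair of seed groups; they are shown together because members of both groups and both genomic clusters lay on the same side.
miR-200c-3p: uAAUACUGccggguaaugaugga
miR-200b-3p: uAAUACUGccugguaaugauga
miR-429-3p: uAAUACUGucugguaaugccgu
miR-141-3p: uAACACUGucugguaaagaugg
miR-200a-3p: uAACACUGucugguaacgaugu
miR-205-5p: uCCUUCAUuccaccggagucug
miR-183-5p: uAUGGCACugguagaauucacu
miR-96-5p: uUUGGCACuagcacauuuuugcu
miR-182-5p: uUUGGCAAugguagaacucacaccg
miR-140-3p: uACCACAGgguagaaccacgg
miR-9-5p: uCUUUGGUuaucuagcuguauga
miR-130b-3p: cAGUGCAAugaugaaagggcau

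The genes of miR-200b, miR-200a and miR-429 lie within 1846 bases at chr4:156053905-156055750 on the minus strand, inside the span of the long non-coding RNA Gm13648. Those of miR-200c and miR-141 lie within 477 bases at chr6:124717914-124718390 on the minus strand. The genes of miR-183, miR-96 and miR-182 lie within 3820 bases at chr6:30165918-30169737, also on the minus strand and inside the span of the long non-coding RNA Mirc35hg. The miR-205-5p sequence is at chr1:193507503-193507524 (minus strand) inside Mir205hg, miR-140-3p at chr8:107551288-107551308 (plus strand) inside the protein-coding gene Wwp2, and miR-130b-3p at chr16:17124071-17124092 (minus strand) inside the protein-coding gene 2610318N02Rik. Exons and introns of these genes were not examined. The mature miR-9-5p is encoded at 3 places in the genome, and the array cannot tell them apart.

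Levels below are log2 values of the scanner's processed signal after each array was scaled to its own 75th percentile, and the lowest level that the scale allows is 3.60. Of the 1122 mouse miRNAs on the array, 330 were detected widely enough to be tested; 201 of these had the scanner's detection flag in every one of the 7 tumours and 6 had it in none of them. The poorly differentiated arrays detected 262 to 309 miRNAs and the adenocarcinoma arrays 249 to 301. The scaling percentile, a measure of how bright an array is, was 619.7, 494.4 and 506.1 intensity units in poorly differentiated tumours 1, 2 and 3. It was 362.6, 420.8, 389.6 and 738.2 in adenocarcinomas 1, 2, 3 and 4, so that the first 3 adenocarcinomas were dimmer than every poorly differentiated array and the MMTV-Met one was brighter. The number of arrays limits the precision of all that follows.

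The poorly differentiated tumours had higher levels of the miR-200 family, miR-205, both arms of miR-140, miR-146b and miR-9 than the adenocarcinomas on average, and lower levels of miR-130b, but no single miRNA passed the test. With limma, 0 of 330 miRNAs (0%) had a Benjamini-Hochberg adjusted p under 0.05, and the smallest adjusted p was 0.0976, shared by 8 miRNAs. At an unadjusted p under 0.05 there were 28 (8.48%), of which 21 were higher in the poorly differentiated tumours (6.36%) and 7 lower (2.12%). In a limma fit of the 7 tumours alone (5 residual degrees of freedom), 0 were called and 11 of 330 had an unadjusted p under 0.05. The smallest adjusted p there was 0.342, so the 28 and the 0.0976 rest on the spread shared with the other arrays. The median difference over all 330 was -0.027, and 123 (37.3%) lay above 0. A difference of at least 2-fold was found in 18 miRNAs upward (5.45%) and 8 downward (2.42%). In 12 miRNAs (3.64%) the groups did not overlap, with all 3 poorly differentiated tumours above all 4 adenocarcinomas in 9 (2.73%) and below them in 3 (0.909%). With normexp background correction these counts were 5 and 10, and 5 of the 12 miRNAs remained, so the balance of the 2 directions depends on the background correction. For a single miRNA, an exact two-sided permutation test of 3 against 4 arrays has 35 splits and cannot go below p = 0.0571. Groups split at random fail to overlap with a probability of up to 0.0571, and the share seen was 3.64%. The count of 12 is therefore not read as a result, and separation of a named miRNA below is a description.

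miR-200c-3p showed the widest difference. Its levels were 9.83, 9.64 and 9.61 in poorly differentiated tumours 1, 2 and 3, and 7.09, 4.59, 3.77 and 9.50 in adenocarcinomas 1 to 4. The poorly differentiated tumours were alike (9.70 ± 0.12, SD, n = 3) and the adenocarcinomas were spread out (6.24 ± 2.59, SD, n = 4), with the MMTV-Met adenocarcinoma just under the lowest poorly differentiated tumour. The difference was 3.46 on the log2 scale, an 11-fold ratio (SE 0.90, 95% interval 1.56 to 5.36, limma adjusted p = 0.0976). This SE and interval rest on a spread shared with the other pathology groups, not on the SDs of 0.12 and 2.59. The interval may therefore be too narrow for these tumours alone. When only these tumours were fitted with limma, the smallest adjusted p of any miRNA was 0.342. The SEs and intervals given below for this comparison rest on the shared spread too. Its cluster partner miR-141-3p was at 7.41, 8.61 and 7.54 in the poorly differentiated tumours and at 4.70, 3.60, 3.60 and 8.14 in the adenocarcinomas. Here the MMTV-Met adenocarcinoma lay among the poorly differentiated tumours while the Trp53fl/+ adenocarcinomas were at the lowest level. The difference was 2.84 (SE 0.72, 95% interval 1.33 to 4.36, adjusted p = 0.0976).

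The other cluster behaved in a similar manner, with more overlap. miR-200a-3p, which has the seed of miR-141, was at 7.32, 8.43 and 7.51 against 4.85, 5.86, 3.60 and 7.40, a difference of 2.33 (SE 0.57, adjusted p = 0.0976). miR-200b-3p was at 9.02, 9.73 and 9.16 against 6.63, 8.50, 4.03 and 9.16, a difference of 2.23 (SE 0.82, adjusted p = 0.276). miR-429-3p was at 8.78, 9.15 and 8.12 against 6.43, 8.47, 3.60 and 8.54, a difference of 1.92 (SE 0.80, adjusted p = 0.393). Adenocarcinoma 2, the Trp53fl/+ tumour that shares a title number with poorly differentiated tumour 1, thus had miR-200b and miR-429 close to the poorly differentiated range but miR-200c and miR-141 far below it. Adenocarcinoma 3 was low in all 5 members, between 3.60 and 4.03. Averaged over the 5 members, the level was 8.47, 9.11 and 8.39 in the poorly differentiated tumours and 5.94, 6.20, 3.72 and 8.55 in the adenocarcinomas. The defining epithelial miRNAs were thus nearly absent from adenocarcinoma 3 in spite of its label, since its mean of 3.72 lay within the 3.60 to 4.44 of the spindloid tumours. Without adenocarcinoma 3 the differences were 2.63 for miR-200c-3p, 2.37 for miR-141-3p, 1.72 for miR-200a-3p, 1.21 for miR-200b-3p and 0.87 for miR-429-3p, and limma called 0 miRNAs, with 26 at an unadjusted p under 0.05. In a bulk sample, fewer epithelial cells and less of a miRNA in each of them cannot be told apart.

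**Figure D1:**
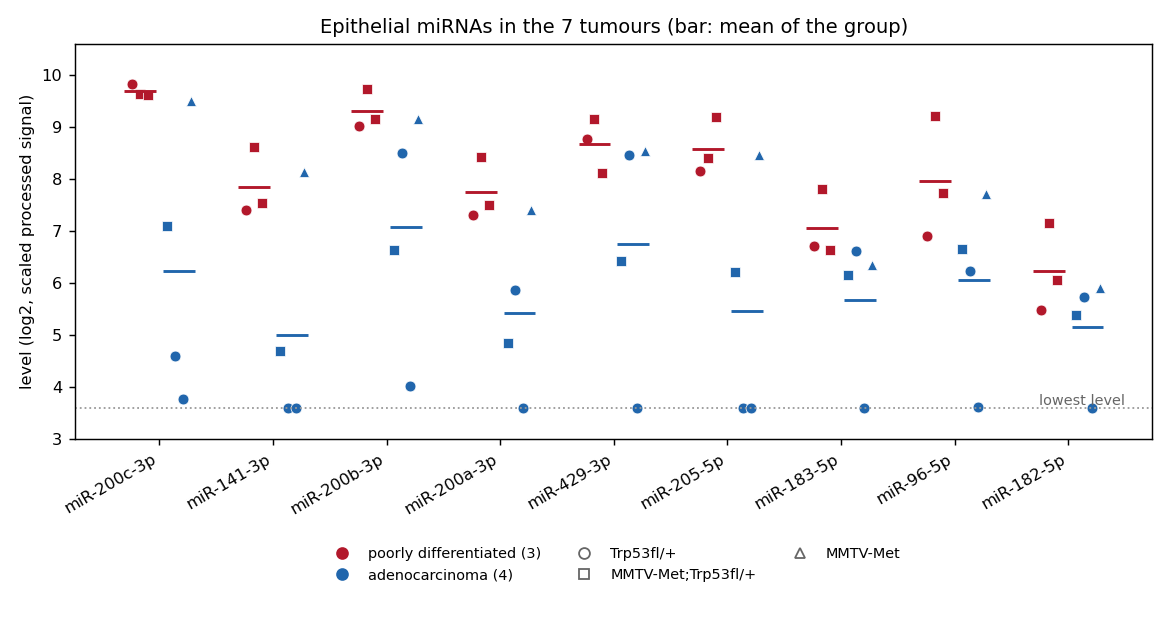
Log2 level (vertical axis, scaled processed signal) of 9 epithelial miRNAs in each of the 7 tumours, red for poorly differentiated and blue for adenocarcinoma, with the symbol giving the genotype and the bar the group's mean. The red points lie close together, with miR-200c-3p between 9.61 and 9.83, while the blue points run from the lowest level of 3.60 up to the MMTV-Met adenocarcinoma, the triangle, which is at 9.50 for miR-200c-3p.

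For miR-205, the miR-183 cluster and miR-148a, too, the lowest tumour was a Trp53fl/+ adenocarcinoma. miR-205-5p was at 8.15, 8.40 and 9.20 in the poorly differentiated tumours and at 6.21, 3.60, 3.60 and 8.46 in the adenocarcinomas, a difference of 3.12 (SE 0.84, 95% interval 1.34 to 4.90, adjusted p = 0.0976). The MMTV-Met adenocarcinoma again lay inside the poorly differentiated range and both Trp53fl/+ adenocarcinomas were at the lowest level. miR-183-5p, which with miR-96 and miR-182 is known from sensory organs and is raised in many carcinomas, was at 6.72, 7.81 and 6.64 against 6.15, 6.62, 3.60 and 6.35. Its groups did not overlap, though the nearest tumours were 6.64 and 6.62, and the difference was 1.38 (SE 0.55, adjusted p = 0.375). miR-96-5p differed by 1.90 (SE 0.76, adjusted p = 0.375) and miR-182-5p by 1.08 (SE 0.51, adjusted p = 0.537), and in both the groups overlapped. In all 3 members the low tumour was adenocarcinoma 3, at 3.60 or 3.61, and without it the differences were 0.68, 1.09 and 0.56 for miR-183-5p, miR-96-5p and miR-182-5p. miR-148a-3p, a miRNA of glandular epithelium and liver, was at 8.09, 9.72 and 7.92 against 7.34, 5.39, 6.21 and 8.77 (difference 1.65, SE 0.71, adjusted p = 0.441), and differed by 1.08 without poorly differentiated tumour 2. miR-203-3p, a miRNA of stratified epithelium, was above the lowest level in 1 poorly differentiated tumour (5.28) and in adenocarcinomas 2 and 4 (3.75 and 3.84).

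The brightness of the arrays moved with these miRNAs, since adenocarcinomas 1 to 3 had both the lower percentiles and the lower levels. Its part in the differences was not tested. The arrays lay on several slides, of which 1 held both groups, namely poorly differentiated tumour 1 and adenocarcinoma 3. On that slide the poorly differentiated tumour was higher by 6.06 for miR-200c-3p, by 3.81 for miR-141-3p, by 4.56 for miR-205-5p and by 1.92 for miR-140-3p. With slide as a block, the differences were 4.16, 3.05, 3.57 and 2.12 (adjusted p = 0.0775, 0.0775, 0.0869 and 0.358). Arrays read at the same scan date gave one comparison that resembled this and one that did not. At the date that held poorly differentiated tumours 1 and 2 and adenocarcinoma 3, miR-200c-3p differed by 5.97, miR-205-5p by 4.68 and miR-141-3p by 4.41. At the date that held poorly differentiated tumour 3 and the MMTV-Met adenocarcinoma, the differences were 0.11, 0.75 and -0.60, while miR-140-3p still differed by 2.23. With scan date as a block, miR-200c-3p differed by 3.71 (adjusted p = 0.159).

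Both arms of miR-140, a miRNA known above all from cartilage and carried within Wwp2, separated the groups without overlap and did not follow the MMTV-Met pattern. miR-140-3p was at 9.33, 8.75 and 9.09 in the poorly differentiated tumours and at 7.42, 5.40, 7.41 and 6.86 in the adenocarcinomas. The difference was 2.28, a 4.87-fold ratio (SE 0.62, 95% interval 0.97 to 3.60, adjusted p = 0.0976). miR-140-5p was at 9.17, 8.60 and 8.94 against 7.50, 4.91, 7.42 and 6.58 (difference 2.30, SE 0.68, adjusted p = 0.126). For both arms the lowest tumour was adenocarcinoma 2, and the MMTV-Met adenocarcinoma lay well below every poorly differentiated tumour.

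Both arms of miR-9, a miRNA of the nervous system that can also repress E-cadherin, were low but separated. miR-9-5p was at 4.24, 5.08 and 4.53 in the poorly differentiated tumours and at the lowest level of 3.60 in all 4 adenocarcinomas (difference 1.02, SE 0.35, adjusted p = 0.262), and the scanner detected it in 3 of 3 and in 1 of 4. With all adenocarcinomas at the lowest level, the size is set by where that level lies: it was 2.71 with a floor 4 times lower, 2.49 in the authors' deposited table and 0.26 with normexp. miR-9-3p was at 4.89, 5.27 and 4.39 against 3.60 in all 4, and the scanner detected it in 3 of 3 poorly differentiated tumours and in 0 of 4 adenocarcinomas. Because the scanner's flag detected it in no adenocarcinoma, its ratio is given as a bound on this scale. It was at least 1.99-fold higher in the poorly differentiated tumours (limma adjusted p = 0.262, measured means 4.85 and 3.60). With normexp the miR-9-3p difference was 0.33 on the log2 scale, a smaller ratio than that, so the bound does not hold under every background correction.

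miR-146b-5p, a miRNA of the NF-kB response, was at 8.18, 8.40 and 8.45 in the poorly differentiated tumours and at 7.00, 4.93, 4.71 and 8.37 in the adenocarcinomas. The difference was 2.09 (SE 0.64, 95% interval 0.74 to 3.44, adjusted p = 0.136), and the MMTV-Met adenocarcinoma again lay inside the poorly differentiated range. miR-146a-5p, which has the same seed, differed by 0.19, so the members of this seed group were not alike. Among the 4 miR-181 miRNAs, which also share a seed, the differences ran from 0.13 to 0.74. The highest of these, miR-181d-5p, was at 4.93, 3.60 and 5.24 against 3.74, 3.79, 4.03 and 3.84 (SE 0.26, adjusted p = 0.262), so that poorly differentiated tumour 2 was below all 4 adenocarcinomas. miR-30a-3p was at 5.44, 4.48 and 4.92 against 4.0, 3.95, 4.10 and 5.07 (difference 0.66, SE 0.24, adjusted p = 0.262).

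A further pair of miRNAs was chosen after their values were seen, because their p-values were among the smallest although few arrays detected them. miR-204-5p, which lies inside Trpm3 and is known from the lens and the retinal epithelium, was at 6.78, 3.60 and 6.21 in the poorly differentiated tumours and at 3.60 in all 4 adenocarcinomas (difference 1.93, SE 0.45, adjusted p = 0.0976). miR-181c-5p had the same shape at a lower level, with 4.44, 3.60 and 4.31 against 3.60 in all 4 (difference 0.52, adjusted p = 0.0976). In both, poorly differentiated tumour 2 was at the lowest level, and without that tumour limma called these 2 and miR-181d-5p. Adenocarcinomas that all lie at 3.60 show no spread of their own, so for miR-204-5p and miR-181c-5p both the size and the p depend on the floor; the miR-204-5p difference was 0.75 with normexp.

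At an unadjusted p under 0.05, fewer miRNAs were lower in the poorly differentiated tumours (7) than higher (21). miR-130b-3p, of the seed group it shares with miR-130a, miR-301a and miR-721, was at 3.71, 4.35 and 3.70 in the poorly differentiated tumours and at 5.50, 5.74, 4.26 and 4.91 in the adenocarcinomas. The difference was -1.18, with adenocarcinoma 3 below poorly differentiated tumour 2 (SE 0.33, 95% interval -1.87 to -0.49, adjusted p = 0.0976), and over the 4 members of that seed group the differences ran from -1.18 to 0.02. miR-3069-3p (-0.59) and miR-3099-3p (-0.88) were lower without overlap, with adjusted p = 0.136 and 0.262. So was miR-155-5p, a miRNA of activated lymphocytes, at 4.62, 4.45 and 4.51 against 4.89, 4.66, 5.94 and 6.28 (difference -0.91, SE 0.54, adjusted p = 0.762). The nearest tumours of the 2 groups were 4.62 and 4.66, so the separation was narrow. It was narrow as well for miR-3069-3p (4.01 and 4.07) and miR-3099-3p (3.68 and 3.75), which lay closer to the lowest level of 3.60. miR-193-3p was at 4.44, 4.07 and 3.79 against 5.29, 4.75, 6.77 and 4.31 (difference -1.18, SE 0.44, adjusted p = 0.290), and without adenocarcinoma 3 it differed by -0.68. Differences of the remaining 6 by the smallest p lay between -1.26 for miR-1927 and -0.63 for miR-34c-5p, with adjusted p from 0.393 to 0.657. miR-34c is a known target of p53, and it was above the lowest level in adenocarcinomas 1 and 3 (4.76 and 5.01) and at or close to it in the other tumours.

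**Figure D2:**
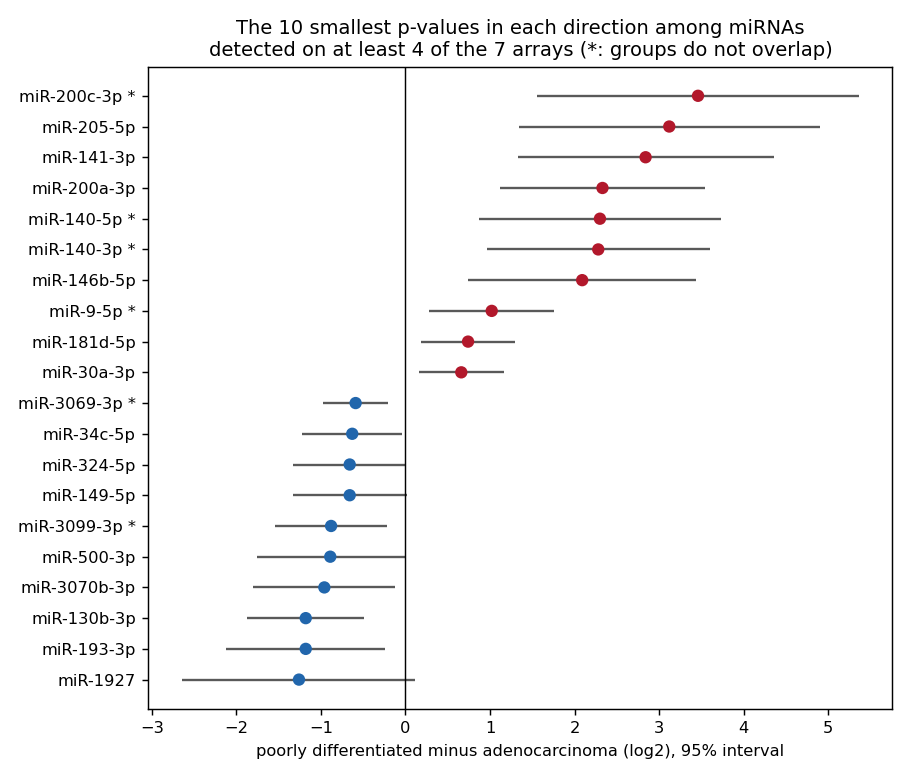
Difference between the groups on the log2 scale (horizontal axis, poorly differentiated minus adenocarcinoma) with its 95% interval from limma, for the 10 miRNAs with the smallest p in each direction among those detected on at least 4 of the 7 arrays. A star marks miRNAs whose groups do not overlap. miR-200c-3p has the largest difference, 3.46, and the differences towards lower levels stay between -1.26 and -0.59.

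Of the 7 tumours, leaving out the MMTV-Met adenocarcinoma changed the number of called miRNAs the most. Without it, that is against adenocarcinomas 1 to 3, limma called 12 of 330 miRNAs: 9 were higher in the poorly differentiated tumours and 3 lower. The higher ones were miR-141-3p (3.89, adjusted p = 1.01e-07), miR-200c-3p (4.54, adjusted p = 0.000332), miR-200a-3p (2.98, adjusted p = 0.000335), miR-205-5p (4.12, adjusted p = 0.000349), miR-146b-5p, miR-30a-3p, miR-30a-5p, miR-200b-3p and miR-204-5p. The lower ones were miR-149-5p (-1.02), miR-3099-3p (-1.14) and miR-500-3p (-1.32). The tumour left out had miR-141-3p at 8.14, against 4.70, 3.60 and 3.60 in the other adenocarcinomas. Leaving it out thus lowers the spread by itself, and the SE of miR-141-3p fell from 0.72 to 0.28. The Trp53fl/+ adenocarcinomas were at the lowest level for miR-141-3p and miR-205-5p, so these p-values depend on the floor too. The miRNAs whose groups did not overlap numbered 38 of 330 in place of 12, 22 of them higher and 16 lower. Leaving out a tumour can only keep or raise this count over the same miRNAs, so its rise is not read as a result. When all MMTV-Met tumours of every pathology and the 2 normal pools were left out of the fit, 9 were called, all higher. They were miR-141-3p, miR-200c-3p, miR-200a-3p, miR-205-5p, miR-146b-5p, miR-30a-3p, miR-200b-5p, miR-9-5p and miR-9-3p. This fit leaves out the same adenocarcinoma. Every adenocarcinoma was at the lowest level for both arms of miR-9, so those calls depend on the floor. With genotype as a covariate in the tumours, none was called (0, and 33 at an unadjusted p under 0.05), while the differences of miR-200c-3p and miR-141-3p were 3.68 and 3.17 (adjusted p = 0.0577 and 0.0559). The adjusted p over the alternatives lay between 0.000332 and 0.999 for miR-200c-3p and between 1.01e-07 and 0.999 for miR-141-3p, and the difference stayed above 0 in each.

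**Figure D3:**
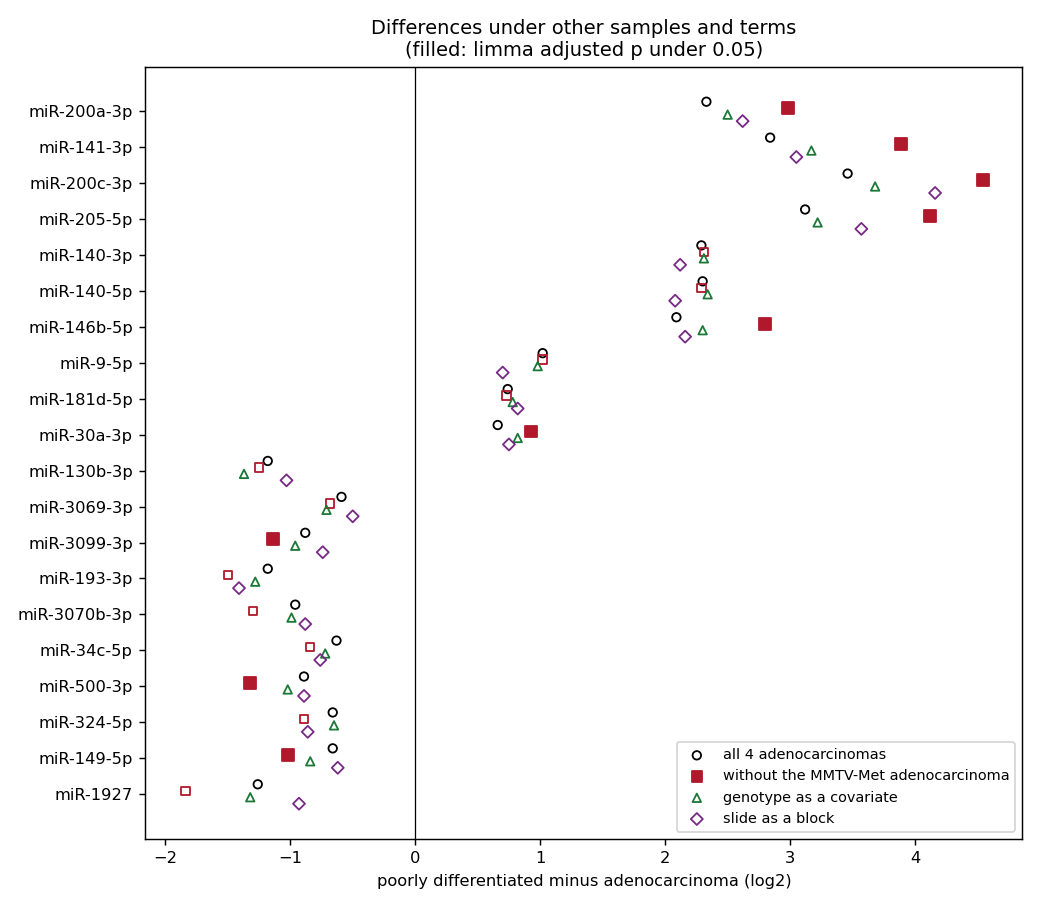
Difference on the log2 scale (horizontal axis) of the same 20 miRNAs in 4 fits: with all 4 adenocarcinomas, without the MMTV-Met adenocarcinoma, with genotype as a covariate, and with slide as a block. Filled symbols have a limma adjusted p under 0.05 and occur only in the fit without the MMTV-Met adenocarcinoma, in which miR-200c-3p moved from 3.46 to 4.54 and miR-140-3p stayed at 2.31.

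Within genotypes the comparison was small. Among MMTV-Met;Trp53fl/+ tumours (2 poorly differentiated, 1 adenocarcinoma) miR-200c-3p differed by 2.53, miR-141-3p by 3.37, miR-205-5p by 2.60 and miR-140-3p by 1.5. Among Trp53fl/+ tumours (1 poorly differentiated, 2 adenocarcinomas) the same miRNAs differed by 5.65, 3.81, 4.56 and 2.92. With 1 tumour in an arm, these values are given as a description. In a fit by pathology and genotype, in which a lone tumour is assumed to vary like the other groups, the difference between the genotypes was -3.11 for miR-200c-3p (adjusted p = 0.558), -1.96 for miR-205-5p (adjusted p = 0.642) and -0.43 for miR-141-3p (adjusted p = 0.858). Between the tumours that share a title number, both Trp53fl/+, the poorly differentiated one was higher by 5.24 for miR-200c-3p, 3.81 for miR-141-3p, 4.56 for miR-205-5p and 3.93 for miR-140-3p, but by only 0.52 for miR-200b-3p and 0.31 for miR-429-3p.

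Read by group, the epithelial lists stood above 0 and most others lay around it. All of the miR-200 family (5 of 5) lay above 0, against 37.3% of all miRNAs tested, with a median of 2.33 against -0.027. All 5 had an unadjusted p under 0.05, against 28 of all 330 (8.48%), and 0 passed the adjusted threshold. The members lie in a pair of genomic clusters and adenocarcinoma 3 was low in all 5, so they are not separate observations. In the miR-183 cluster 3 of 3 were above 0 (median 1.38). Of the other epithelial miRNAs listed, 3 of 5 were tested and all 3 were above 0 (median 1.65). The 5 miRNAs of the miR-23, miR-24 and miR-27 clusters were above 0 as well (median 0.332), led by the members of the miR-23b cluster. miR-27b-3p differed by 1.12 (adjusted p = 0.276), and miR-23b-3p, at 8.97, 10.10 and 8.70 against 8.35, 8.20, 8.10 and 8.30, did not overlap (difference 1.02, adjusted p = 0.393). Without poorly differentiated tumour 2, the highest for miR-23b-3p, these differences were 0.67 and 0.60. Among the 8 miRNAs tested of the miR-30 and miR-29 families, 7 were above 0 (median 0.415), with miR-30c-5p at 0.90 and miR-30a-5p at 0.75, and none passed in either direction.

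Other families showed no common direction that exceeded their spread. The let-7 family had 5 of 9 above 0 (median 0.006) and stayed between -0.07 and 0.37. The miR-17 cluster and its paralogs, which drive proliferation, had 4 of 10 above 0 (median -0.063). Of the p53-induced miRNAs 1 of 5 was above 0 (median -0.23), and of the Dlk1-Dio3 cluster 4 of 12 (median 0). In the tumour-associated list 5 of 6 were below 0 (median -0.786). miR-221-3p, which represses the cell cycle inhibitor p27, was at 5.69, 5.35 and 5.14 against 8.24, 6.21, 7.79 and 3.89, a difference of -1.14 (SE 0.80, adjusted p = 0.762), with the MMTV-Met adenocarcinoma lowest of all 7. It differed by -0.57, -0.72 and -2.02 without adenocarcinoma 1, 3 or 4. miR-21-5p, the common oncogenic miRNA, differed by -0.06. Among the Met-targeting, miR-15 and miR-16, miR-99, miR-100 and miR-125, miR-10, adipose and neural lists the medians ran from -0.462 for miR-10a and miR-10b to 0.229 for miR-99, miR-100 and miR-125. limma called 0 members in each of these lists, with 0 to 1 at an unadjusted p under 0.05 in a list.

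**Figure D4:**
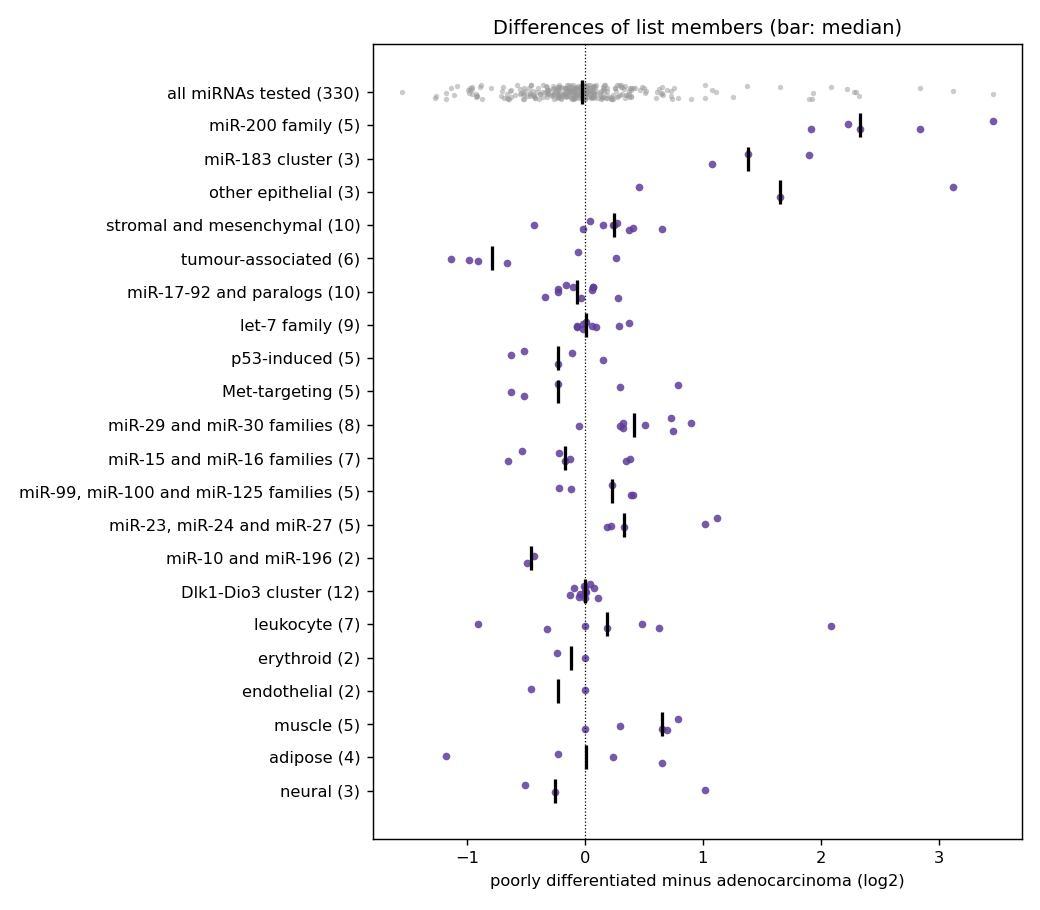
Difference on the log2 scale (horizontal axis) of each tested member of 21 lists, with all 330 miRNAs tested in the top row; the number in brackets is the number tested and the bar is the median. The miR-200 family has a median of 2.33 and the miR-183 cluster of 1.38, while the median over all miRNAs is -0.027.

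Markers of other cell types were set beside these values, since the tumours were powdered whole. Of the stromal and mesenchymal list 8 of 10 tested members were above 0 (median 0.246) and 0 had an unadjusted p under 0.05. The summed level of its members, as log2, lay between 9.91 and 11.46 in the poorly differentiated tumours and between 9.03 and 11.38 in the adenocarcinomas. The highest mean level of this list, 7.19, was in poorly differentiated tumour 1 and the lowest, 5.04, in the MMTV-Met adenocarcinoma. Of the leukocyte list 4 of 7 were above 0 (summed level 9.75 to 10.02 against 8.76 to 10.48), and its largest difference was that of miR-146b-5p. miR-142-3p, the defining leukocyte miRNA, was at 5.56, 7.93 and 5.93 against 6.62, 5.02, 6.32 and 6.0. The endothelial list was at 8.45 to 9.14 against 7.83 to 10.46 and the erythroid list at 8.18 to 11.01 against 8.52 to 11.81, so both overlapped. Skeletal muscle miRNAs were present in 1 tumour of each group. miR-133b-3p was at 9.90 in poorly differentiated tumour 3 and 9.21 in adenocarcinoma 3, and at the lowest level in the other 5 tumours, as were miR-1a-3p, miR-133a-3p and miR-206-3p. The differences of miR-1a-3p, miR-133b-3p and miR-133a-3p (0.79, 0.70 and 0.65) turned to -1.032, -1.402 and -1.125 without poorly differentiated tumour 3. The part of the other cell types in the differences of the epithelial miRNAs was not tested.

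Set against the spindloid tumours, the poorly differentiated tumours differed in many miRNAs. limma called 29 of 330 (8.79%), 24 higher (7.27%) and 5 lower (1.52%) in the poorly differentiated tumours. At an unadjusted p under 0.05 there were 54 (16.4%), 37 higher (11.2%) and 17 lower (5.15%). All 5 members of the miR-200 family and all 3 of the miR-183 cluster rose, together with miR-205-5p, both arms of miR-140, miR-146b-5p, miR-148a-3p, miR-193b-3p, miR-204-5p, both arms of miR-30a and 2 let-7 members. miR-200c-3p was higher by 5.74 (SE 0.81, adjusted p = 0.000214), where the spindloid tumours had 3.60 at the lowest, 3.60 at the median and 4.98 at the highest. miR-200b-3p was higher by 5.34 (adjusted p = 0.000214), miR-429-3p by 4.84 (adjusted p = 0.00032), miR-205-5p by 4.67 (adjusted p = 0.00052) and miR-141-3p by 4.19 (adjusted p = 0.000378). For each of these 5 the call held in every alternative that gave a value, but the size depends on the floor, since the spindloid median was at 3.60. The scanner detected miR-200c-3p in 4, miR-200b-3p in 5, miR-429-3p in 2, miR-205-5p in 3 and miR-141-3p in 1 of the 7 spindloid tumours. Over the alternatives the difference ran from 3.75 to 6.88 for miR-200c-3p and from 2.39 to 5.89 for miR-141-3p. The lower ones were miR-221-3p (-2.70, adjusted p = 0.0301) and its partner miR-222-3p (-2.28, adjusted p = 0.0318), miR-199b-5p of fibroblasts (-2.05, adjusted p = 0.0468), miR-511-3p, which lies inside the macrophage gene Mrc1 (-1.34, adjusted p = 0.0449), and miR-350-3p (-1.08, adjusted p = 0.0449). The count fell to 17, 17 and 15 without poorly differentiated tumour 1, 2 or 3. With scaling by all mouse probes it was 18, all of them higher, so none of the 5 lower calls passed under that scaling. Over all alternatives the lower call was lost in 16 for miR-511-3p, 13 for miR-350-3p, 12 for miR-199b-5p, 8 for miR-222-3p and 5 for miR-221-3p.

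The adenocarcinomas, set against the same spindloid tumours, gave 0 calls of 330 (0%) with limma and 39 at an unadjusted p under 0.05 (11.8%), 28 higher (8.48%) and 11 lower (3.33%). miR-200b-3p was higher by 3.11 (SE 0.68, adjusted p = 0.0518), miR-429-3p by 2.92 (SE 0.66, adjusted p = 0.0518), miR-200c-3p by 2.28 (SE 0.74, adjusted p = 0.169) and miR-205-5p by 1.55 (SE 0.69, adjusted p = 0.365). The difference between the groups of adenocarcinomas is the comparison given first, in which 0 were called, so the unequal counts of 29 and 0 do not show that the groups differ. Both comparisons share the 7 spindloid tumours. Adenocarcinoma 3 and spindloid tumour 7 share a title number, and with that number as a random block the adenocarcinomas gave 3 calls. miR-140-3p was at 5.55 to 7.45 in the spindloid tumours (median 6.98), so the poorly differentiated tumours were higher by 2.30 (SE 0.56, adjusted p = 0.0166) and the adenocarcinomas by 0.02 (SE 0.51). Without adenocarcinoma 3 the adenocarcinomas gave 9 calls, and without spindloid tumour 6 they gave 6.

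Over all pathologies, the place of the poorly differentiated tumours differed between the epithelial miRNAs, and it is given as a description. The 3 solid nodular MMTV-Met tumours had miR-200c-3p at 11.11, 10.04 and 11.05, above all 3 poorly differentiated tumours, and miR-205-5p at 6.58, 6.18 and 6.24, below all 3. In the miR-183 cluster the poorly differentiated median was above the solid nodular one, at 6.72 against 5.99 for miR-183-5p, 7.74 against 7.46 for miR-96-5p and 6.07 against 5.12 for miR-182-5p. The scirrhous adenocarcinoma, also MMTV-Met, had miR-200c-3p at 9.18 and miR-205-5p at 8.20, close to adenocarcinoma 4. The normal gland pools had miR-200c-3p at 7.40 and 7.13 and miR-205-5p at 7.54 and 7.66, under the poorly differentiated tumours. For miR-140-3p no other array reached the poorly differentiated range, the nearest being a solid nodular tumour at 8.03 and an intermediate tumour at 7.96. miR-9-5p was at 6.02 and 5.46 in 2 solid nodular tumours and at 4.06 in the adenosquamous one, so its level above background was not peculiar to poorly differentiated tumours. The same holds for miR-204-5p, at 9.06 in the adenosquamous tumour. When the scirrhous tumour was counted among the adenocarcinomas, 9 miRNAs did not overlap and limma called 0, with 28 at an unadjusted p under 0.05.

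**Figure D5:**
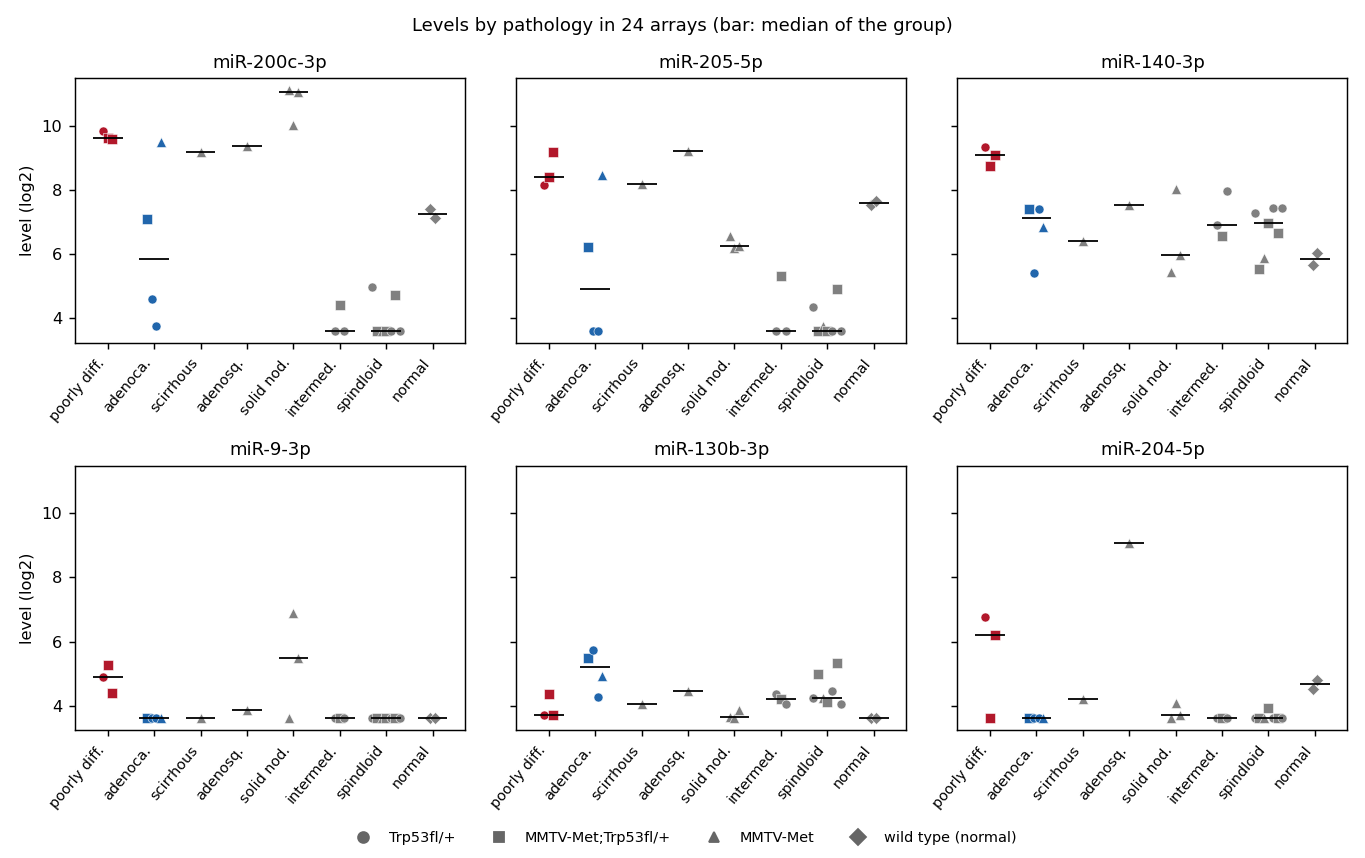
Log2 level (vertical axis) of 6 miRNAs in 24 arrays arranged by pathology, with the symbol giving the genotype and the bar the group's median. For miR-140-3p the 3 poorly differentiated tumours, at 8.75 to 9.33, are the highest of all; for miR-200c-3p they lie below the solid nodular tumours, and the 4 adenocarcinomas run from 3.77 to 9.50.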

How the data were processed

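MicroRNAs were measured in total RNA of snap-frozen tissue on one-colour Agilent mouse arrays labelled with Cy3, per the labels' protocols. The deposited intensity values are single-spot processed signals of Agilent Feature Extraction 10.7.3.1, background-subtracted by that software and not normalised between arrays, per the file headers. A table of log2 values per spot was deposited by the authors too. RMA is named, with no role or version, per the submitters' processing notes. Its columns followed the log2 scanner signal of the same spots (lowest r = 0.99584) with medians from 1.7232 to 1.9055, so the scale is log2 and the centring is unknown.

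Groups came from the pathology label, and replicates were numbered in accession order. Spots marked as outliers were left out, and the signal was divided by each array's 75th percentile over the 221 probes well above background on all 25 arrays, raised to a floor of 0.0212 of it, and expressed as log2 at the median percentile of 572.5. Spots and then probes of a miRNA were averaged. Detection is the scanner software's flag per miRNA. Tested miRNAs were detected on at least 7 tumour arrays or both normal arrays. A miRNA that passed only through the 7 spindloid tumours or the 2 normal pools was thereby chosen for being high there, which bears on comparisons with that group. Neither the 3 poorly differentiated tumours nor the 4 adenocarcinomas could pass a miRNA alone.

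limma 3.58.1 in R 4.3.3 (lmFit, eBayes) was run on 24 arrays in 8 pathology groups, which share 1 estimate of spread (16 residual degrees of freedom), with adjustment over the 330 miRNAs tested. A tumour with no stated pathology was left out. A bound sets the bright group's mean against, per array, the higher of 2 values, its own signal and the lowest one well above background on that array. Named miRNAs were the 10 with the smallest p in each direction among those detected on at least 4 of the 7 arrays, up to 4 members of each list, and the 5 called miRNAs with the largest change in each direction against spindloid tumours. Members and lists were chosen with earlier results of these data known. The code was tested on simulated data. No arrays held identical values. The normexp alternative used the median spot signal, since no mean signal was in the files used here, with an offset of 50.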

Additional observations from a re-analysis of the deposited data

Results flagged for a closer look

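Among 40 groups of 4 or 7 arrays in which a single array could be compared with the others, 8 held an array that stood apart by its gap to the nearest value relative to the group's range. Chance marks about 1 in 20 groups where values are normally distributed. That rate does not hold for groups at the lowest level, where any single value above it stands apart. In the adenocarcinomas the MMTV-Met tumour, adenocarcinoma 4, stood apart in both cases: miR-30a-3p was at 5.07 there against 3.95 to 4.10 in the other tumours, and miR-500-3p was at 5.13 against 6.74 to 7.02. In the spindloid tumours, 4 of these miRNAs were at the lowest level of 3.60 in every other array, so a small excess was enough. They were miR-141-3p at 4.04 in spindloid tumour 6, miR-30a-3p at 3.75 in spindloid tumour 4, miR-204-5p at 3.91 in spindloid tumour 4 and miR-181c-5p at 3.64 in spindloid tumour 3. The others were miR-181d-5p at 4.05 in spindloid tumour 7 and miR-3070b-3p at 4.72 in spindloid tumour 1.

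For miR-466b-3p, of the rodent Sfmbt2 cluster, a single tumour set the test of the difference between genotypes. The difference within MMTV-Met;Trp53fl/+ minus that within Trp53fl/+ was -1.27 (SE 0.17, limma adjusted p = 0.00349, 1 of 330 called and 18 at an unadjusted p under 0.05). It was at 4.87 in poorly differentiated tumour 1, at 8.95 in the MMTV-Met adenocarcinoma and at 3.60 or 3.61 in the other 5 tumours, and 3 of the 7 arrays detected it. Within the 2 genotypes compared, poorly differentiated tumour 1 was the only tumour above 3.61. That tumour is alone in its arm and the others have almost no spread, so a difference between the genotypes is not shown.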

How the results depend on the processing

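Each choice was changed alone. The count of 0 calls between poorly differentiated tumours and adenocarcinomas became 4 with normexp (miR-200c-3p, miR-205-5p and both arms of miR-140), 2 with a floor 4 times lower (both arms of miR-9) and 9 in Trp53-deleted tumours. Leaving out 1 tumour gave 0 to 12, with 3 without poorly differentiated tumour 2 and 12 without adenocarcinoma 4. Normexp moved the median difference of all miRNAs from -0.027 to -0.179, and relative to that median the miR-200c-3p difference of 2.15 remained above it. The 12 miRNAs without overlap became 38 in Trp53-deleted tumours and 13 to 38 without 1 tumour (23, 21 and 23 without poorly differentiated tumour 1, 2 or 3, and 38 without adenocarcinoma 4). With fewer tumours and the same miRNAs this count can only stay or rise.

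Against spindloid tumours, the 29 calls of the poorly differentiated tumours became 18 with the percentile over all mouse probes, 761 with no detection filter and 15 to 27 without 1 tumour. The 0 calls of the adenocarcinomas became 6 with normexp, 3 with the percentile over all mouse probes, with the authors' table or with title number as a random block, 7 with the brightest probe, 1 with the lower floor, on all 7 arrays detected or with slide as a block, 2 with at least 4 arrays detected, with detection by a majority of spots, with scan date as a block or with a trended and robust eBayes, 5 with the scirrhous tumour added, 687 with no filter and 0 to 9 without 1 tumour. With no filter all 1122 miRNAs entered, of which 669 were detected on none of the 25 arrays, and the median difference was 0 in both comparisons. The 761 and 687 calls are therefore not read as differences between tumours. The cause of the other changes was not tested.

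For 51 miRNAs between the poorly differentiated tumours and adenocarcinomas, 1261 of 1297 values under an alternative kept direction and side of the threshold, 29 newly passed it, 2 became 0 and 5 turned: miR-30e-3p (-0.08, normexp), miR-138-5p (0.003, slide as a block), and miR-1a-3p (-1.032), miR-133b-3p (-1.402) and miR-133a-3p (-1.125) without poorly differentiated tumour 3. Leaving out 1 tumour took those last 3 as high as 1.822, 2.1 and 1.777. None of the 51 passed in the main fit, so no call could be lost, and keeping the side of the threshold meant not passing again. A value that shrank was counted as kept, such as miR-30a-3p, at 0.66 in the main fit and 0.03 with normexp. The count of 1261 is thus no measure of how steady the sizes are. Of 276 values for 10 miRNAs against spindloid tumours, 54 no longer passed and none turned (0). All of those 54 belonged to the miRNAs that were lower in the poorly differentiated tumours.

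No paired analysis was possible because poorly differentiated tumours and adenocarcinomas share a single title number, as do adenocarcinomas and spindloid tumours, and replicate numbers only follow accession order. With title number as a random block the fitted correlation was 0.126 and 0 were called (32 at an unadjusted p under 0.05). Detection by a majority of spots, the scirrhous tumour in the overlap count and the comparison between genotypes were chosen after seeing the data. Dim miRNAs near the floor have no order among themselves, and 3 against 4 arrays leave wide intervals.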
